A study of Mus musculus with 5 samples.

Results

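Wnt signalling was examined in 5 mouse gliomas, 3 expressing mutant IDH1 (mutIDH1) and 2 expressing the wild-type enzyme (wtIDH1), through 52 genes for Wnt ligands, their receptors, secreted inhibitors, R-spondins, intracellular components and TCF/LEF transcription factors. The genes were taken by symbol from a family list, and the probe that was brightest on average over the 5 samples stood for each. 51 of the 52 had a probe, 48 of them passed the filter on dim probes and were tested among 16917 genes in all, and Wnt1, Dkk2 and Rspo2 were too dim to be tested. Tcf7 was not analysed here. Only names and the mean signal entered this choice, so the difference between the groups was not used, although results of these data were known when the genes were listed.

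Tumours in both groups were raised in Ntva_Ink4a/Arf-/- mice on a mixed background of FVB/N, C57BL6, BALB/C and 129, with RCAS retroviruses released by injected DF1 chicken fibroblasts. Every mouse received PDGFa virus, and the second virus joined shp53 to wtIDH1 in the control tumours and to mutant IDH1 in the others. By its name shp53 is a hairpin against p53, and the Ntva transgene is known to place the viral receptor under the nestin promoter, in neural progenitors. Mice were taken when ill, their ages are not given in the sources used here, and RNA came from whole tumour tissue on Illumina arrays.

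Wnt proteins are secreted, lipid-modified signals that bind a Frizzled receptor together with LRP5 or LRP6. In the canonical branch this halts the destruction complex built on Axin and APC, beta-catenin accumulates, and with TCF/LEF factors it switches on target genes, several of which (Axin2, Nkd1, Apcdd1, Rnf43, Znrf3) feed back on the pathway. In the brain, Wnt7a and Wnt7b made by neural and oligodendrocyte precursors act on endothelial cells and are required for vessel ingrowth and the blood-brain barrier, and Wnt5a is the usual example of a ligand that acts through ROR2 and RYK without beta-catenin.

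Values are log2 signals, and an estimated background level lay at 7.51 on that scale. Between 18921 and 18933 of 45281 probes were above it on each array, and between 27 and 30 of the Wnt genes. The glioma and progenitor genes Sox2 (9.02 to 10.10), Olig2 (8.53 to 9.54) and Pdgfra (13.67 to 14.29) were above it in all 5 tumours. The wtIDH1 samples differed from each other (SD of their difference over all tested genes 0.40) more than any mutIDH1 pair did (0.18 to 0.26), and neuron markers set them apart, with Syt1 at 8.10 in wtIDH1 sample 1, 13.09 in wtIDH1 sample 2 and 11.53 to 12.34 in mutIDH1. Xist, which female cells express, stood at 10.42 and 10.44 in sample 1 of each group and at 7.13 to 7.33 in the other 3, so the wtIDH1 samples also differed in sex, and sex and sample cannot be told apart between them. Nothing in the labels says more about the origin of the samples than a tumour code for each, so p-values measure the spread between these 5 samples.

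25 of the Wnt genes were above background on all arrays, 16 were at or under it on all arrays, and 10 lay between. Those at or under it throughout were the ligands Wnt1, Wnt2b, Wnt3a, Wnt6, Wnt8b and Wnt11, the receptors Fzd4 and Ror1, the inhibitors Dkk2, Sfrp4, Sfrp5 and Frzb, the R-spondins Rspo1 and Rspo2, the ubiquitin ligase Znrf3 and the transcription factor Lef1. A probe at background does not show that a gene is silent, since the probes of Csnk1a1 and Rhoa, which nearly every cell uses, were at background on all arrays too.

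**Figure D1:**
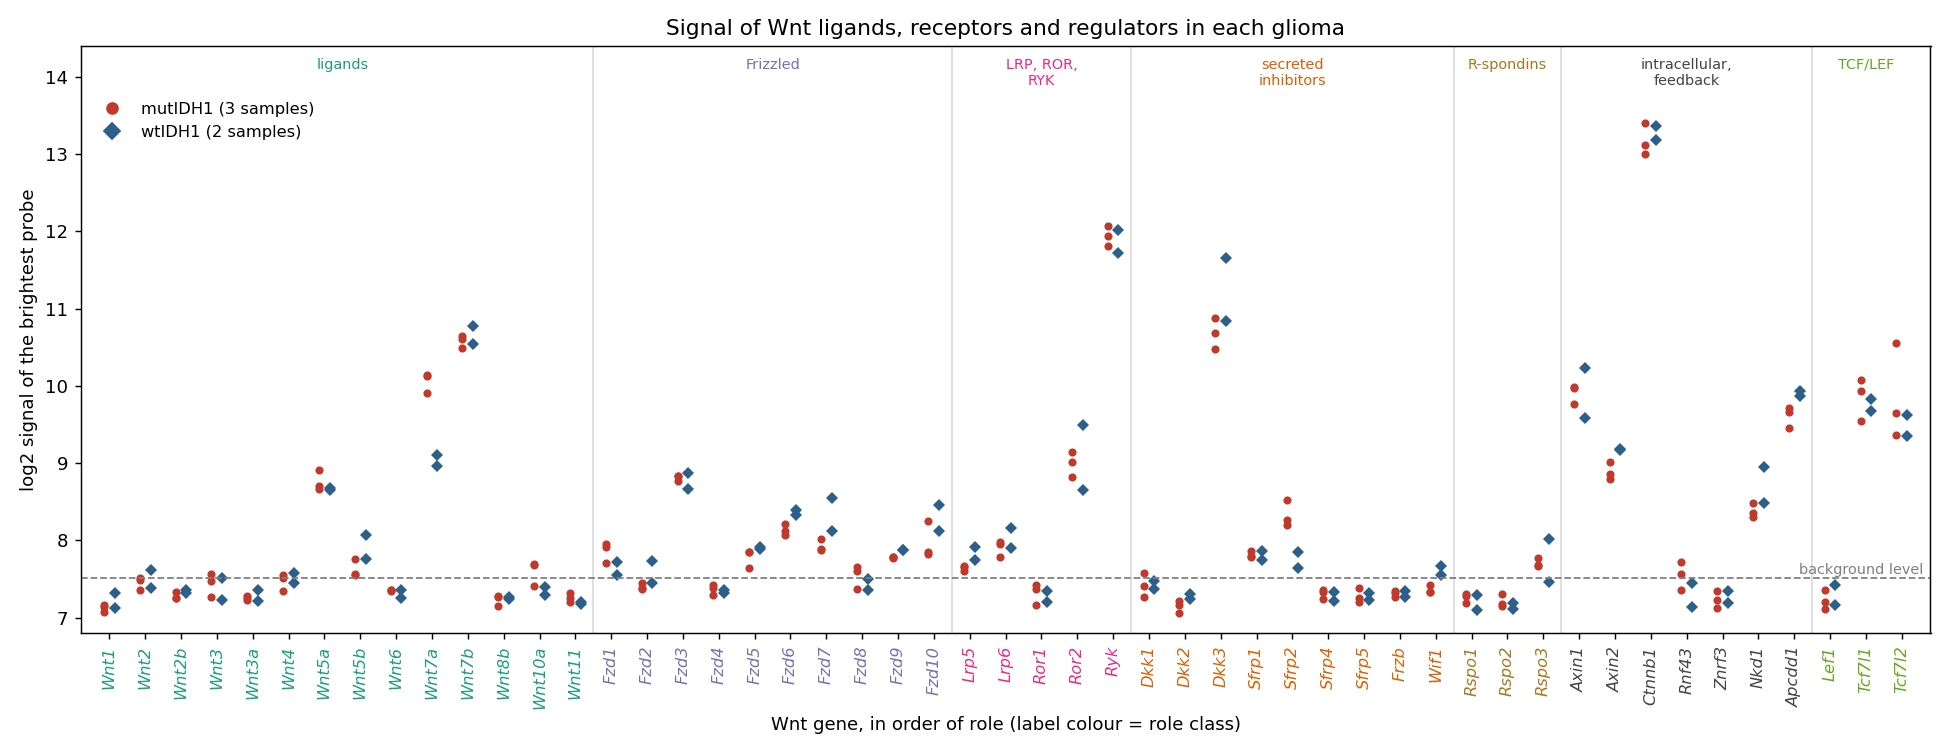
Log2 signal of the brightest probe of each of 51 Wnt genes (x axis, grouped by role) in 3 mutIDH1 gliomas (red circles) and 2 wtIDH1 gliomas (blue diamonds), with the estimated background level of 7.51 as a dashed line. Points of both groups lie close together for most genes, Wnt7a is the gene whose groups stand clearly apart, and 16 genes lie at or under the line in all samples; heights of different probes are not comparable.

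Both groups carry an added IDH1, so setting them against each other asks which Wnt genes differ with its form. Wnt7a was higher in mutIDH1 gliomas, and it was the 1 member of 48 that passed the test, limma with Benjamini-Hochberg adjustment over all 16917 genes at 0.05. No member passed as lower (0 of 48, against 7 either way at an unadjusted p under 0.05). Of all tested genes 1.35% passed, 0.449% as higher and 0.899% as lower, and 14.4% reached an unadjusted p under 0.05, against 14.6% of the Wnt genes. The median change of the Wnt genes was -0.025 on the log2 scale and their median absolute change 0.088, beside 0.014 and 0.10 over all tested genes. Among genes above background on all arrays, these medians were -0.094 and 0.19 for the 25 Wnt genes, beside 0.025 and 0.16 for all. There 64% of the Wnt genes had a negative change, beside 45.3% of all. An unadjusted limma p under 0.05 was reached by 24% of these Wnt genes and 21.8% of all.

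Wnt7a stood at 9.90, 10.13 and 10.14 in mutIDH1, against 8.97 and 9.11 in wtIDH1. All mutIDH1 values lay above both wtIDH1 values, and the gap between the groups was several times the range within either. The change was 1.02 ± 0.11 (log2, moderated SE, n = 3 and 2), or 2.03-fold, with a limma adjusted p of 0.0267. The array carries 1 probe for it. Leaving out any mutIDH1 sample ended the call, with a limma adjusted p of 0.0502 without sample 1, 0.169 without sample 2 and 0.146 without sample 3, while the change stayed between 0.95 and 1.10 with each of the 5 samples left out in turn; without a mutIDH1 sample only 0 to 14 genes of the whole array passed.

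Wnt7b, the closest relative of Wnt7a and its partner in signalling to brain endothelium, did not pass. Its signal was 10.49, 10.64 and 10.61 in mutIDH1 and 10.77 and 10.55 in wtIDH1, so the groups overlapped (-0.08 ± 0.10, limma adjusted p = 0.812). Another probe of Wnt7b, also above background on all arrays, gave 0.06. Taken within each sample, the log2 signal of Wnt7a minus that of Wnt7b was -0.58, -0.51 and -0.47 in mutIDH1 and -1.81 and -1.44 in wtIDH1. This difference shifted by 1.10 between the groups, with a 2-sided exact permutation p of 0.2, which is the smallest that 3 against 2 samples allow. Wnt7a was taken up here because its groups differed, so this p adds no support of its own.

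Promoter sequences are shown for Wnt7a, which passed the test, for Sfrp2, the inhibitor with the next largest positive change, and for Axin2, the feedback gene most used as a readout of canonical signalling. They are the 250 bases before the annotated start site, from RefSeq on build GRCm38.p6, written 5′ to 3′ on the strand of the gene, with capitals marking CG dinucleotides, the sites at which mammalian DNA is mostly methylated.
Wnt7a, chr6:91411354-91411603, minus strand: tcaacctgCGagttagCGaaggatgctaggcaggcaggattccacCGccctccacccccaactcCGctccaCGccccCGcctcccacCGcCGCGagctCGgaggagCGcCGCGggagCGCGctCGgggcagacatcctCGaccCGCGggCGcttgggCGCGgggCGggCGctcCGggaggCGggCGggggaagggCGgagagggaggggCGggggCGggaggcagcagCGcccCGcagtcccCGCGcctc
Sfrp2, chr3:83766071-83766320, plus strand: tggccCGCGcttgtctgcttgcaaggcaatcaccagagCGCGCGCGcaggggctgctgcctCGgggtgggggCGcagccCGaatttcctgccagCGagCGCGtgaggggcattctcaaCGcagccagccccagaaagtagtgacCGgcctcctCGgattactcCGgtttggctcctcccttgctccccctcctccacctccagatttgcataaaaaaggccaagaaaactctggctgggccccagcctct
Axin2, chr11:108920099-108920348, plus strand: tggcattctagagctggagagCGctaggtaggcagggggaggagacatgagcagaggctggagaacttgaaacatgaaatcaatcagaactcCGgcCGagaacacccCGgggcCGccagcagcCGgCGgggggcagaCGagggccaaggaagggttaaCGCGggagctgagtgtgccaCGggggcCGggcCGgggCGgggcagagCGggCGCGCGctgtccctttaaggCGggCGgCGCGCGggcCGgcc
The Wnt7a window holds 34 CG dinucleotides, a number that 3.53% of the 32851 windows of that length in the RefSeq table reach. The Axin2 window holds 24 (12% reach it) and the Sfrp2 window 16 (25.4% reach it). The median was 21 over the windows of the listed genes and 6 over all windows, so many CG dinucleotides are not particular to Wnt7a. None of the 3 contains CTTTGA on either strand, the core letters of the TCF/LEF motif, which 13.8% of all such windows contain. Of the listed genes 35 of 52 had a window in the table, and 7 of their 45 windows contain these letters, those of Dkk1, Frzb, Fzd1, Lef1, Ror1, Wnt11 and Wnt5b. Methylation and binding were not measured in these samples.

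**Figure D2:**
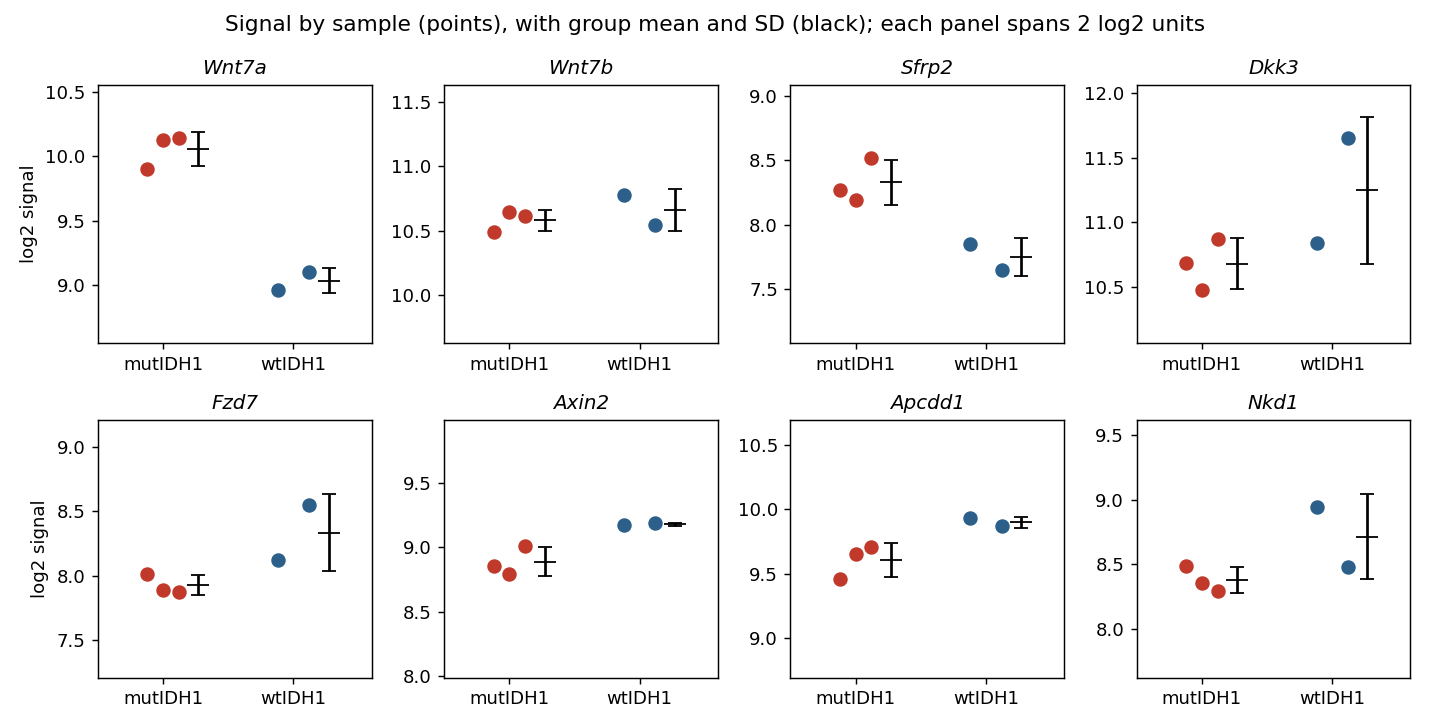
Log2 signal of 8 Wnt genes by sample (points), with the group mean and SD in black, for 3 mutIDH1 and 2 wtIDH1 gliomas; every panel spans the same height on the log2 scale. Wnt7a and Sfrp2 are higher in all mutIDH1 samples, Axin2, Apcdd1 and Fzd7 are lower in all of them by smaller amounts, Wnt7b and Nkd1 overlap, and for Dkk3 wtIDH1 sample 2 lies far above the other 4.

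Among the other ligands, none passed. Wnt5a gave 8.92, 8.70 and 8.67 in mutIDH1 against 8.68 and 8.66 in wtIDH1, with overlapping groups (0.09 ± 0.10, limma adjusted p = 0.766). Wnt5b, a near relative of Wnt5a, gave 7.76, 7.56 and 7.56 against 7.76 and 8.06, so that wtIDH1 sample 1 lay inside the mutIDH1 range (-0.28 ± 0.12, limma adjusted p = 0.401). Wnt10a was at or under background in both wtIDH1 samples and above it in 2 of the mutIDH1 samples, at least 1.06-fold higher in mutIDH1 (limma adjusted p = 0.404). Wnt2 (7.36 to 7.61), Wnt3 (7.23 to 7.56) and Wnt4 (7.35 to 7.58) lay at the edge of background in both groups.

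All 10 Frizzled receptor genes were tested, and none passed. 5 of them, Fzd2, Fzd5, Fzd6, Fzd7 and Fzd9, had every mutIDH1 value below both wtIDH1 values, an arrangement that 14.0% of all tested genes showed, and none had the opposite one, which 16.7% of all tested genes showed. Over the whole set of 48 these counts were 9 and 4, and over the 25 above background on all arrays 7 and 2, where all genes above background had shares of 15.9% and 19.1%. Fzd2 exceeded background on 1 array only, wtIDH1 sample 2 at 7.73. Its mutIDH1 values of 7.37 to 7.44 lay barely under wtIDH1 sample 1 at 7.45. Fzd7, a receptor linked to progenitor cells, had the largest difference among the receptors, at 8.01, 7.89 and 7.87 in mutIDH1 and 8.12 and 8.55 in wtIDH1 (-0.41 ± 0.14, limma adjusted p = 0.270). The size depended on the wtIDH1 samples, with a change of -0.20 without sample 2 and -0.62 without sample 1.

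Fzd6, which also serves planar cell polarity, gave 8.07, 8.13 and 8.22 against 8.39 and 8.32, a small separation without overlap (-0.22 ± 0.08, limma adjusted p = 0.292), and its other probe gave -0.23. Fzd10 stood at -0.31 ± 0.18 (limma adjusted p = 0.528) with overlapping groups, and all 3 of its probes had that sign. Fzd3, which guides axons, differed by 0.05 ± 0.09 (limma adjusted p = 0.895), and Fzd1 by 0.22 ± 0.11 (limma adjusted p = 0.469). For Fzd5 the mean of its probes gave 0.002, with the opposite sign. Fzd4, the endothelial receptor for norrin and for the Wnt7 ligands, was at background on all arrays, so no change can be read for it.

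The co-receptors Lrp5 and Lrp6 were above background on all arrays. Lrp5 gave 7.67, 7.60 and 7.65 in mutIDH1 and 7.92 and 7.75 in wtIDH1, without overlap (-0.19 ± 0.08, limma adjusted p = 0.389), while the 3 other probes for it, near background, had the opposite sign. Lrp6 stood at -0.12 ± 0.11 (limma adjusted p = 0.729). Ryk, a kinase-dead Wnt receptor, was between 11.72 and 12.07 in all samples (0.07 ± 0.13, limma adjusted p = 0.884). Ror2, the Wnt5a receptor, separated the wtIDH1 samples rather than the groups, at 9.49 and 8.65, with the mutIDH1 samples at 8.82, 9.14 and 9.01 between them (-0.08 ± 0.26, limma adjusted p = 0.940).

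Of the secreted inhibitors, Sfrp2, a decoy that binds Wnt proteins, had the next smallest p after Wnt7a. It gave 8.27, 8.19 and 8.52 in mutIDH1 and 7.85 and 7.65 in wtIDH1. The groups did not overlap, but the change of 0.58 ± 0.13, or 1.49-fold, did not pass (limma adjusted p = 0.120), and over the 14 other settings tried that p ran from 0.0746 to 0.443. Dkk3, a Dickkopf relative whose action on Wnt is unsettled, gave 10.69, 10.48 and 10.88 against 10.84 and 11.65. Here wtIDH1 sample 1 lay within the mutIDH1 range and sample 2 far above it (-0.57 ± 0.26, limma adjusted p = 0.410), and 2 other probes had the same sign. Without wtIDH1 sample 2 the change was -0.16.

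Wif1, another Wnt-binding inhibitor, did not exceed background in any mutIDH1 sample and lay just above it in wtIDH1 at 7.67 and 7.56, at least 1.07-fold higher in wtIDH1 (limma adjusted p = 0.232). Sfrp1 differed by 0.02 ± 0.08 (limma adjusted p = 0.958). Dkk1, an antagonist of LRP5 and LRP6, stayed between 7.26 and 7.57, at the edge of background. Of the R-spondins, which amplify Wnt signals by removing the ubiquitin ligases Rnf43 and Znrf3, only Rspo3 exceeded background on some arrays, at 7.68, 7.67 and 7.77 in mutIDH1 and 7.46 and 8.02 in wtIDH1 (-0.03 ± 0.17, limma adjusted p = 0.967). Rspo1 was at background on all arrays.

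None of the 7 intracellular and feedback genes passed, and 6 of them had a negative change, a sign that 45.6% of all tested genes had. Among the 6 were Axin1 at -0.003 and Znrf3 at -0.03, the latter at background on all arrays. Axin2, a scaffold of the destruction complex and a direct target of beta-catenin in many tissues, gave 8.86, 8.79 and 9.01 in mutIDH1 and 9.17 and 9.19 in wtIDH1. All mutIDH1 values were below both wtIDH1 values, at a change of -0.29 ± 0.09, or 1.22-fold (limma adjusted p = 0.226). Apcdd1, a membrane inhibitor that Wnt induces in brain vessels, gave 9.46, 9.66 and 9.71 against 9.93 and 9.87, also without overlap (-0.29 ± 0.10, limma adjusted p = 0.263). Another of its probes above background gave -0.45.

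Nkd1, an inhibitor that binds Dishevelled, gave 8.49, 8.35 and 8.30 against 8.95 and 8.48 (-0.34 ± 0.15, limma adjusted p = 0.421), so wtIDH1 sample 2 lay inside the mutIDH1 range and the change was -0.57 without it and -0.10 without wtIDH1 sample 1. Rnf43 was at or under background in wtIDH1 and above it in 2 mutIDH1 samples, at least 1.02-fold higher in mutIDH1 (limma adjusted p = 0.544). For Axin1, the constitutive scaffold, the wtIDH1 samples stood at 10.24 and 9.58 on either side of mutIDH1 at 9.77, 9.97 and 9.98 (-0.003 ± 0.20, limma adjusted p = 0.998). Ctnnb1, which encodes beta-catenin, was between 13.00 and 13.40 in all samples (-0.10 ± 0.14, limma adjusted p = 0.841). Its protein is regulated by degradation, which RNA signals do not report.

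Of the TCF/LEF factors, Tcf7l1 gave 9.55, 10.08 and 9.94 in mutIDH1 and 9.67 and 9.83 in wtIDH1 (0.10 ± 0.17, limma adjusted p = 0.875). Tcf7l2 was set apart by 1 sample, with mutIDH1 sample 1 at 10.56 and the other samples between 9.35 and 9.64 (0.37 ± 0.36, limma adjusted p = 0.741). Without that sample its change was 0.02.

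**Figure D3:**
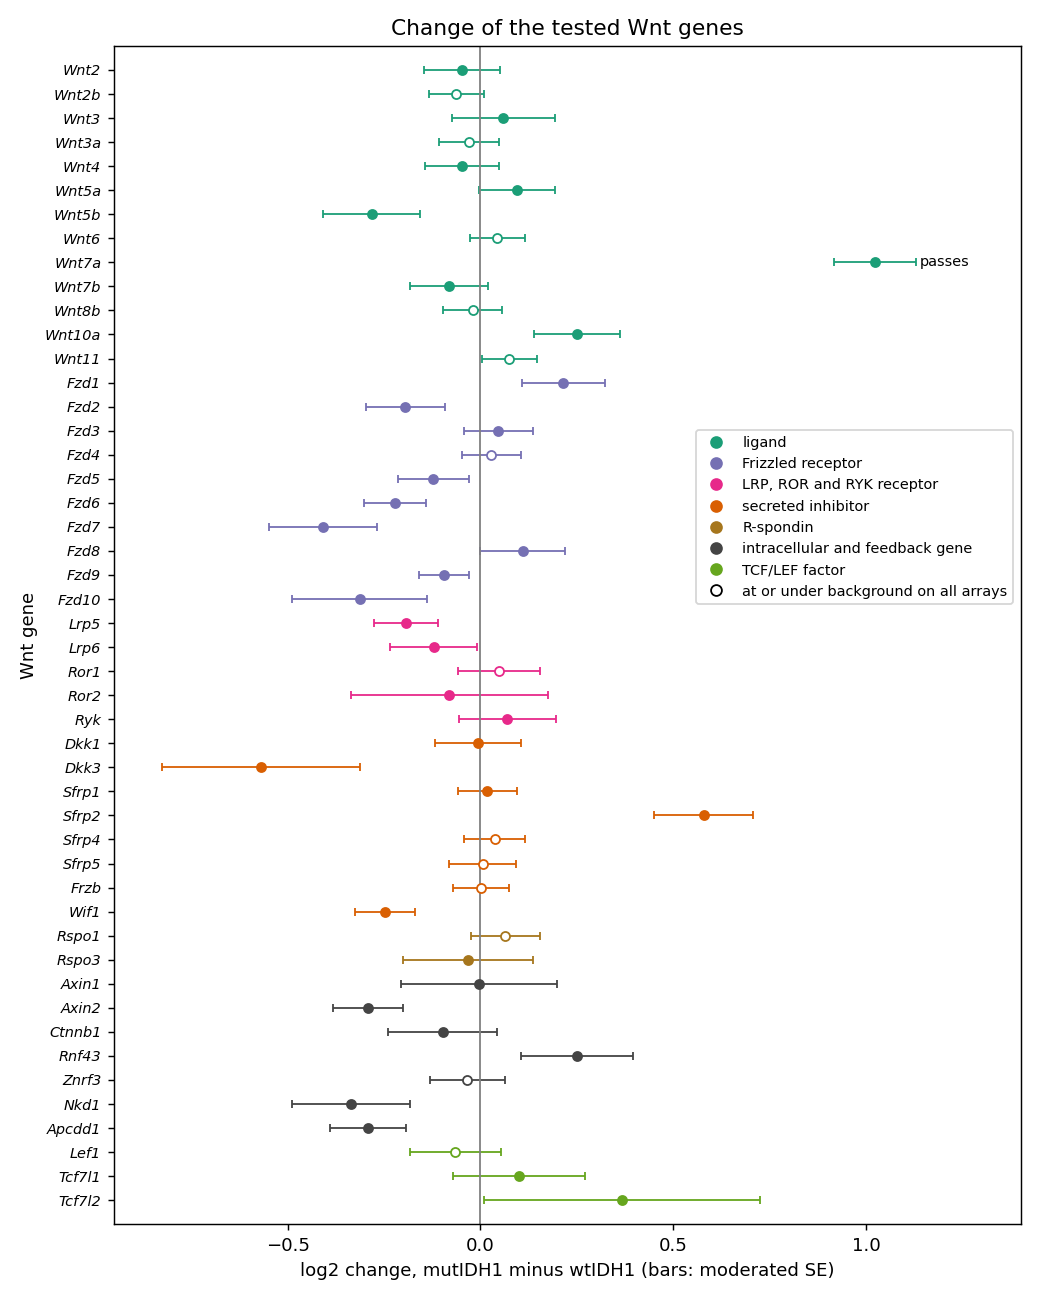
Log2 change (mutIDH1 minus wtIDH1) of the 48 tested Wnt genes with its moderated SE, coloured by role; open circles are genes at or under background on all arrays. Wnt7a at 1.02 is the 1 gene that passes, Sfrp2 follows at 0.58, and all other changes lie between -0.57 and 0.37.

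The wtIDH1 samples were far apart beside most of these differences. For 14 of the 25 Wnt genes above background on all arrays, the wtIDH1 samples differed from each other by more than the groups did, and the same held for 58.1% of all tested genes above background on all arrays. Wnt7a was not among the 14, with 0.14 between the wtIDH1 samples and 0.24 over the mutIDH1 samples. The sharpest gaps between the wtIDH1 samples were 0.84 for Ror2 and 0.65 for Axin1, higher in sample 1, and 0.81 for Dkk3, higher in sample 2.

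Beyond the 52 genes, 88 of 98 listed genes of Wnt secretion, reception, transduction and response were tested. Of these 1 passed as lower and 0 as higher, and 15 reached an unadjusted p under 0.05. Over all tested genes 0.899% passed as lower and 0.449% as higher, and 14.4% reached an unadjusted p under 0.05. The gene that passed was Slc2a1, the glucose transporter of brain endothelium and a gene of hypoxia, which fell by 0.77 ± 0.08 (limma adjusted p = 0.0282), from 12.22 and 12.30 in wtIDH1 to 11.59, 11.43 and 11.46 in mutIDH1. It kept this direction but lost the call when any mutIDH1 sample was left out (limma adjusted p = 0.0709 to 0.177), and with sex as a covariate (0.0732). The median change over the 88 genes was 0.042.

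Genes of Wnt secretion, which a ligand needs to leave the cell, did not pass. Porcn, the enzyme that attaches the lipid, stood at 0.10 ± 0.08 (limma adjusted p = 0.689) and Wls, the carrier of Wnt to the surface, at -0.36 ± 0.19 (limma adjusted p = 0.498). Tmed5, which helps Wnt proteins leave the endoplasmic reticulum, was at background on all arrays. Of the co-receptors by which endothelium reads the Wnt7 ligands, Adgra2 gave 7.45, 7.46 and 7.56 in mutIDH1 and 7.77 and 7.97 in wtIDH1 (-0.38 ± 0.09, limma adjusted p = 0.144), 2 of its 3 probes had that sign, and the mean of the 3 gave -0.09. Reck, which works with it, differed by 0.08 ± 0.10 (limma adjusted p = 0.815). Lgr5, an R-spondin receptor that Wnt also induces, gave 7.86, 7.69 and 7.62 against 8.19 and 8.24, without overlap (-0.50 ± 0.09, limma adjusted p = 0.0874). Gpc3, a heparan sulphate proteoglycan, stood at -0.76 ± 0.16 (limma adjusted p = 0.113). Of the 13 tested co-receptors and modulators, 5 had a negative and 8 a positive change. Lgr6, Dkkl1, Gpc4 and Musk, among the 13, were at background on all arrays. Sostdc1 (0.39 ± 0.10, limma adjusted p = 0.160) and Tspan12 (0.44 ± 0.17, limma adjusted p = 0.338) were higher in mutIDH1 without overlap.

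Of the ligands and agonists outside the 52 genes, 0 of 7 passed by limma, and 5 of the 7, Wnt9a and Wnt9b among them, were at background on all arrays. In the cytoplasm, the Nkd1 relative Nkd2 stood at -0.54 ± 0.11 (limma adjusted p = 0.113), Tnks2, a tankyrase that marks Axin for destruction, at -0.33 ± 0.07 (limma adjusted p = 0.113), and Btrc, the ubiquitin ligase subunit that recognises beta-catenin, at 0.50 ± 0.11 (limma adjusted p = 0.114). In the nucleus, Ctnnbip1, which keeps beta-catenin from TCF, stood at 0.42 ± 0.09 (limma adjusted p = 0.110) and Pygo2 at 0.19 ± 0.07 (limma adjusted p = 0.329). Of 11 planar cell polarity genes none passed, with Scrib at 0.18 ± 0.09 and Rac1 at 0.14 ± 0.12. Of targets in other tissues none passed, Cdx1 did not exceed background in wtIDH1 and reached it in 1 mutIDH1 sample, so no size can be given, Myc and Ccnd1 differed by 0.15 and 0.10, and Sp5, a close transcriptional readout of canonical Wnt, stood out in wtIDH1 sample 1 at 9.10, with the other 4 samples between 7.68 and 7.77 (limma adjusted p = 0.478). Ccnd1, at 14.82 to 14.97, lay near the highest signal of every array, 15.06, so its difference may be compressed.

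**Figure D4:**
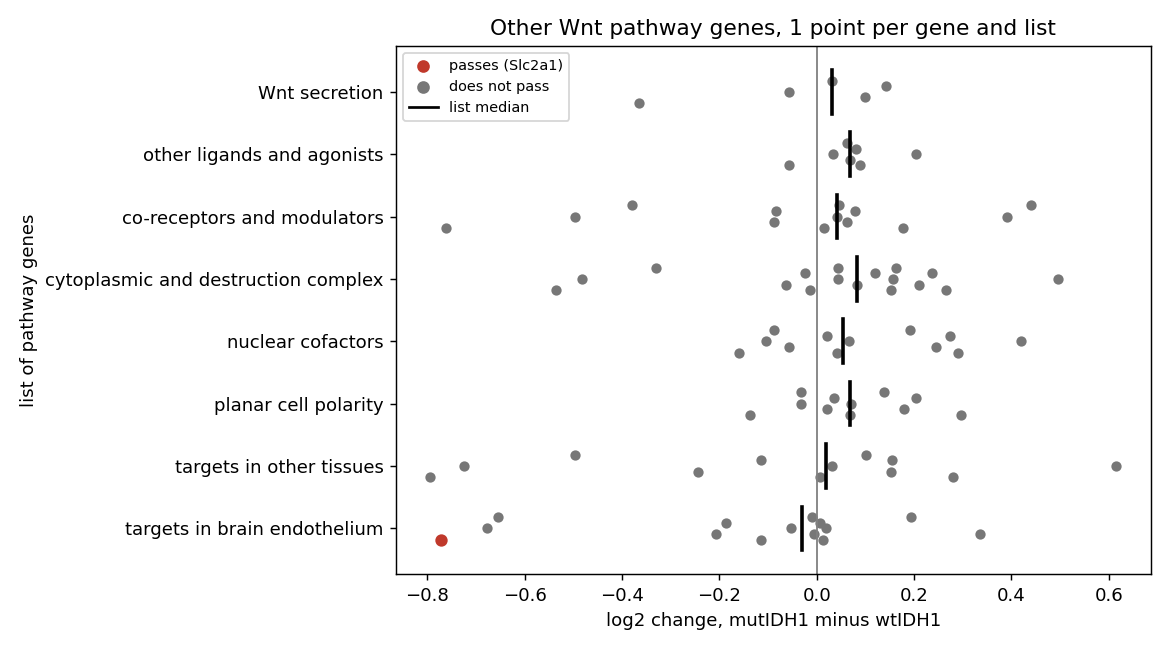
Log2 change (mutIDH1 minus wtIDH1) of the tested genes in 8 lists of other Wnt pathway genes, 1 point per gene and list (3 genes stand in more than 1 list), with list medians as black bars. The points spread on both sides of 0, the medians lie between -0.031 and 0.082, and the 1 gene that passes is Slc2a1 at -0.77.

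Several cell type markers moved with the groups, and their part in the Wnt values was not tested. In whole tissue, fewer cells of a type and less RNA per cell cannot be told apart. Of 18 endothelial markers 4 fell and 0 rose by limma, 17 had a negative change, and the mean centred log2 signal of the list ran from -0.30 to -0.15 in mutIDH1 and from 0.25 to 0.42 in wtIDH1; Erg was the 1 of them at background on all arrays. The 4 were Vwf (-1.34), Emcn (-1.26), Egfl7 (-0.93) and Cdh5 (-0.84). Cldn5, the tight junction protein of brain endothelium, gave -0.65 ± 0.16 (limma adjusted p = 0.146) and Plvap, the endothelial gene that canonical Wnt restrains, -0.68 ± 0.20 (limma adjusted p = 0.213), the same sign in both. Mfsd2a, a Wnt-dependent lipid transporter of the barrier, differed by 0.01 ± 0.11. Axin2, Apcdd1, Fzd6, Adgra2 and Slc2a1, which endothelium expresses, had negative changes too, and of these only Slc2a1 passed. Of the listed co-receptors and modulators, Tspan12 (0.44 ± 0.17) and Reck (0.08 ± 0.10) had positive changes. Other genes differed in sign. Of the 14 tested targets in brain endothelium, 9 had a negative and 5 a positive change, with a median of -0.031. The 9 include Plvap, and Cldn3, Abcb1a and Ocln, 3 of the 14, were at background on all arrays. Slco1c1 stood at 0.33 ± 0.36 and Tnfrsf21 at 0.19 ± 0.12, both with overlapping groups. The change of Slco1c1 turned to -0.27 without wtIDH1 sample 1.

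Mural and fibroblast markers were lower as well (4 of 16 fell and 0 rose, mean centred signal -0.27 to -0.22 in mutIDH1 and 0.33 to 0.41 in wtIDH1, with Myh11 at background on all arrays), and those that fell were Acta2 (-2.19), Col1a1 (-1.53), Col3a1 (-0.80) and Pdgfrb (-0.68). Of 8 microglia and macrophage markers Mrc1 fell (-1.35), and no marker of neurons, meninges, red blood cells or choroid plexus passed (limma adjusted p from 0.123, for Alas2 of red blood cells, with 0.227 for Slc6a13 of meninges and 0.285 for Ttr of choroid plexus). The mean centred signal of the microglia and macrophage list did not overlap (-0.24 to -0.10 in mutIDH1 and 0.007 to 0.50 in wtIDH1). That of the red blood cell list did not overlap either, at -0.91 to -0.06 and 0.39 to 0.92, with 4 of 4 changes negative. The choroid plexus and ependyma list stood higher in mutIDH1, at 0.14 to 0.22 against -0.55 to -0.009, with Tmem212 at background on all arrays. The neuron list (-0.08 to 0.29 and -1.43 to 0.94, with Tubb3 and Snap25 at background on all arrays) and the meninges list (5 of 5 changes negative) overlapped. Beside Wnt7a, which glial progenitors and astrocytes express, Sox2 was higher in mutIDH1 (0.99 ± 0.08, limma adjusted p = 0.0169), the 1 of 8 oligodendrocyte lineage and glioma markers that passed, and the list's mean centred signal overlapped between the groups (-0.06 to 0.50 and -0.46 to 0.03). Of 8 astrocyte markers none passed, their mean centred signal overlapped too (0.06 to 0.61 and -1.13 to 0.24), and Sox9 came nearest to passing (2.33 ± 0.34, limma adjusted p = 0.0509). All markers of these 2 lists with a probe were above background on some array.

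Genes that mark position along the brain also differed, and Wnt genes are themselves patterned along it. Of 12 tested midbrain and hindbrain markers 3 fell in mutIDH1, En1 by 2.33 ± 0.08 (limma adjusted p = 0.00199), Hoxa2 by 2.36 ± 0.18 (limma adjusted p = 0.0169) and Hoxa5, at background in mutIDH1 and at least 10.9-fold higher in wtIDH1 (limma adjusted p = 0.00607). Of the 12, 8 had a negative and 4 a positive change, with a median of -0.072. Gbx2, above background on all arrays, stood at 0.63 ± 0.29 with overlapping groups (limma adjusted p = 0.428). The mean centred signal of the list ran from -0.30 to -0.26 in mutIDH1 and from 0.30 to 0.54 in wtIDH1. Pax2, Pax5, Pax7, Fgf8, Hoxa3 and Hoxb5 were at background on all arrays. Of 5 tested forebrain markers none passed, with Otx1 at 0.69 ± 0.20 (limma adjusted p = 0.203), and Emx1 and Six3, 2 of the 5, were at background on all arrays, as were the untested Emx2 and Neurod6. The part of position in the Wnt7a difference was not tested.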

How the data were processed

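RNA from 5 gliomas was measured on 1 Illumina array each, and groups came from the sample titles. The deposited values are log2 signals of 45281 probes. The authors worked with limma, per the submitters' processing notes, which name no version or step. The columns share 1 distribution, as after quantile normalization, and background was not subtracted to 0, which compresses changes of dim genes. A table with 10 columns of non-normalized values was not used, because its column names match no single sample.

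Probes were named through the platform annotation (34885 with 1 symbol, 18 with several, which were left unnamed, and 10378 unnamed here), and symbols were updated for the 34807 whose gene identifier matched RefSeq (GRCm38.p6). The dimmest 20% of probes, those averaging under 7.23, were dropped, and the brightest probe stood for each gene. The background level is the most frequent signal, 7.24, to which 3 times the spread on its low side (0.0887) was added. Where no array of a group exceeds it, a difference is given as "at least" a fold, against the higher of that level and its own signal. Groups were compared with limma 3.58.1 in R 4.3.3 (lmFit, eBayes, 2-sided, all 5 samples, 3 residual and 2.50 prior degrees of freedom), adjusted by Benjamini-Hochberg at 0.05; the script was tested on simulated data. The number of arrays limits precision. Marker lists were summed up by centring each gene on its own mean and averaging over genes.

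Members, lists and tests were chosen with earlier results of these data known. Named are members that passed, members above background in at least 1 group with a change of at least 0.5, the 2 brightest and the smallest p per role class, pathway genes that passed or else the 2 smallest p per list, and at most 4 markers that passed per list, else the smallest p; genes beyond these were chosen after their values were seen. Alternatives covered the filter, the probes per gene, moderation, background correction, normalization, samples left out, sample number as a block and sex.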

Additional observations from a re-analysis of the deposited data

How the results depend on the processing

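Of the 48 tested Wnt genes, Wnt7a was the only one called under any of the 14 alternatives, and it was higher under all of them. It passed under 10, and its change ran from 0.95 to 1.15. 16 of the 25 Wnt genes above background on all arrays kept their sign under every alternative. Leaving out 1 sample at a time gave 0 to 479 changed genes (0 to 234 lower, 0 to 245 higher), 0 to 1 Wnt genes called higher and 0 called lower, and 0 to 3 other pathway genes called lower and 0 to 1 higher. With mutIDH1 sample 2 or 3 left out 0 genes changed by limma (1747 and 1849 at an unadjusted p under 0.05). Without wtIDH1 sample 2 the lone wtIDH1 sample is assumed to vary like the mutIDH1 samples, and Nkd2, Sp5 and Celsr2 passed there beside Slc2a1. With trended and robust moderation 363 genes changed, 253 of them lower. With sex, read from Xist signal, as a covariate 59 genes changed (49 lower, 10 higher), Wnt7a still passed, and 0 other pathway genes did.

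With the sample number as a replicate block 0 genes changed by limma, 0 lower and 0 higher (1562 at an unadjusted p under 0.05), Wnt7a (0.98, limma adjusted p = 0.393) and Slc2a1 lost their calls, and so 0 Wnt genes and 0 other pathway genes were called. That fit has few residual degrees of freedom, and the labels do not say whether the numbers mark pairs. Deviations from the group means correlated at -0.26 over genes for number 1 and at 0.11 for number 2. The deviations of the 2 wtIDH1 samples mirror each other, so these correlations cannot settle whether samples were paired. Numbers 1 and 2 also follow sex in both groups, so a block on the number takes up sex as well. Normexp background correction and the filters on dim probes left the Wnt calls as they were. Genes within the background, 16 of the 51, cannot show a difference at this signal.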

Other observations

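Probes of 1 gene did not always tell the same story. Tcf7l2 has 6 probes, and the brightest, at 10.56 in mutIDH1 sample 1, was joined by the next at 7.90, which was also highest in that sample but close to wtIDH1 sample 2 at 7.82. For Ctnnb1 all 4 probes had a negative change, of which a dimmer one, at 7.95, 8.35 and 8.28 in mutIDH1 and 8.61 and 8.51 in wtIDH1, showed no overlap between the groups, unlike the brightest.

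Celsr2, a cadherin of planar cell polarity, stood at 8.51 in wtIDH1 sample 1 and 10.10 in wtIDH1 sample 2, on either side of the mutIDH1 samples at 9.47, 9.60 and 9.45. The same sample had Syt1 at 8.10 and Rbfox3 at 8.05, both neuron markers, where the others had at least 11.53 and 10.43.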
